A study of Mus musculus with 8 samples.

Results

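The genes described are 10 that set or read the activity of mTORC1, the kinase complex that restrains autophagy, and of the transcription factors TFEB and TFE3 that it controls. They were chosen by name (Mtor, Rptor, Tsc1, Tsc2, Rheb, Tfeb, Tfe3, Ddit4, Sesn1 and Sesn2) and are measured by 21 of the 56605 probes on the array. All 10 had a probe that passed the filter on dim signals, and so had 18 of the 21 probes; 18605 genes were tested in all. RNA came from adherent cells of the peritoneal cavity, prepared as macrophages, of mice that were wild type (wt) or lacked Card9 (Card9-/-). Card9 is an adaptor between fungal recognition receptors such as Dectin-1 and NF-kB. Each genotype had 4 one-colour Agilent arrays. Mice of both genotypes had been injected with 1 ml of 3% thioglycolate, an irritant that draws cells into the peritoneum, and with zymosan, a yeast cell wall preparation, at 500 mg/kg for 4 h. Cells of the peritoneal fluid were taken 4 days after thioglycolate, pellets of 4 or 5 mice per group were collected, red cells were lysed, and the cells that adhered to culture plates within 3 h were kept. Untreated mice were not analysed here, and all differences are between genotypes that had both received zymosan. Whether each array holds its own mice or a share of 1 pool is not given in the labels, so the p-values measure only the spread between these samples, which may be technical.

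Several features of the libraries bear on all values below. Between 47.8% and 56.5% of the 59305 spots per array were well above background and no spot was saturated. Neither of the 2 Card9 probes was well above background on a Card9-/- array. The brighter of them was so on 3 of 4 wt arrays, with signals of 38.2, 1058 and 561 in wt replicates 2, 3 and 4. Its signal was 4.75 in the library labelled wt replicate 1, which is called wt 1 below. The other probe was well above background on 2 wt arrays. It read 12.7, 20.2, 142 and 41.1 in wt 1 to 4 and 3.70, 6.94, 4.05 and 18.5 in Card9-/- 1 to 4. Arrays wt 1 and wt 2 lay far closer together than any other wt pair, with an SD of their difference over probes of 0.398 log2 units against 1.11 to 1.71. Xist was well above background on all 4 wt arrays and on 0 Card9-/- arrays. The Y-linked genes Eif2s3y, Ddx3y and Uty were so, by at least 1 probe each, on 4 Card9-/- and 0 wt arrays. Sex and genotype therefore cannot be told apart. All wt arrays and Card9-/- 4 shared slide 1, and the other Card9-/- arrays lay on slides 2 and 3. The cells carried macrophage RNA (7 of 8 markers passed the filter, Mertk did not), but the mean level of those markers ranged from 1.17 to 6.69 log2 units over the wt arrays and from 2.64 to 3.24 over the Card9-/- arrays. T cell markers (9 of 10 passed, Trac did not) had mean levels of 0.16 to 0.72 in wt and 1.38 to 2.73 in Card9-/-. Natural killer cell markers (7 of 8 passed, Ncr1 did not) likewise did not overlap, with -1.80 to -1.04 in wt and -0.55 to 1.92 in Card9-/-. Red cell markers (5 of 5) had means of 3.12 in wt and 5.45 in Card9-/- despite the lysis. They overlapped, with 0.33 to 4.67 in wt and 3.74 to 8.03 in Card9-/-. B cell markers (7 of 7) ranged from 2.51 to 4.09 over all arrays. The B cell mean lay above the macrophage mean in wt 1 (3.73 against 1.17), wt 2 (3.53 against 1.42) and all Card9-/- arrays. It lay below in wt 3 (2.51 against 6.69) and wt 4 (3.31 against 5.52). Levels of different probes do not give the shares of cell types. The part of other cell types in the values below was not tested. In such bulk RNA, fewer cells of a type and less RNA per cell cannot be told apart.

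mTORC1 is a kinase complex on the lysosome surface that is switched on by amino acids, through the Rag GTPases, and by growth factors, through the small GTPase Rheb. The TSC complex holds Rheb in its inactive form, and stress-induced proteins such as REDD1 (Ddit4) and the sestrins lower mTORC1 activity. When active, mTORC1 phosphorylates ULK1 and ATG13, which blocks the start of autophagy, and it keeps TFEB and TFE3, which switch on lysosome and autophagy genes, out of the nucleus; macrophages depend on this lysosomal programme to digest what they engulf. The arrays measure RNA only, not phosphorylation or the place of these proteins in the cell.

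None of the 10 genes differed between Card9-/- and wt cells past the threshold, an adjusted p of 0.05 in limma's moderated test over all genes. It was passed by 0.0269% of all genes (5 genes, with 4 higher in Card9-/-, 0.0215%, and 1 lower, 0.00537%). None was below 0.05 before adjustment either, where 7.23% of all genes were. In the simulated data used to test the script, 0% of genes shifted by 1 log2 unit were called and 34% of those shifted by 2. Differences of the sizes given here could thus go uncalled, and the lack of a call does not show that the genotypes were alike. The largest fitted differences were a lower signal of Rheb (-1.23 ± 0.64, SE) and Sesn2 (-0.69 ± 0.36) and a higher one of Sesn1 (0.76 ± 0.42) in Card9-/-. All levels and differences are on the log2 scale, levels relative to each array's 75th percentile, and differences are Card9-/- minus wt with n = 4 arrays per genotype.

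**Figure D1:**
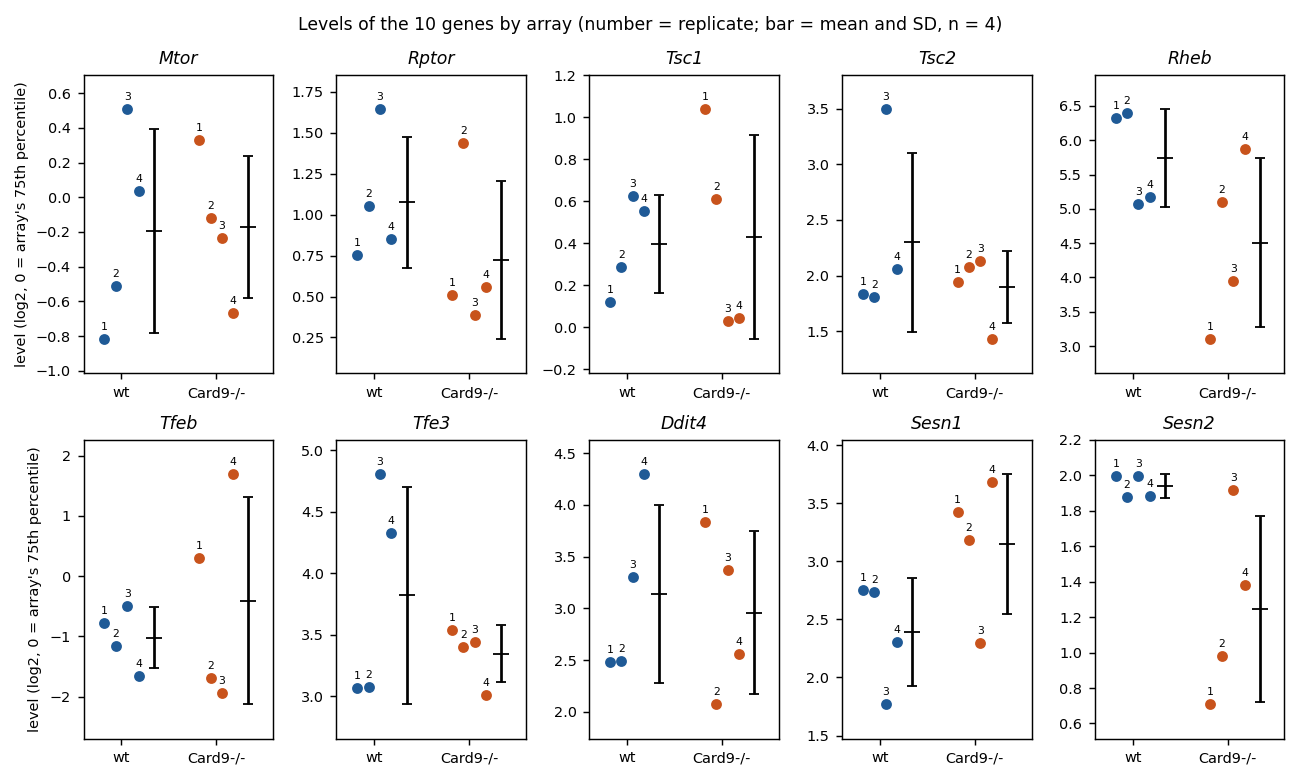
Levels of the 10 genes on each array, on the log2 scale with 0 at the array's 75th percentile; points are arrays numbered by replicate (blue wt, orange Card9-/-) and bars give the mean and SD of 4 arrays. The vertical axis differs between panels. The groups overlap for all 10 genes; the 4 wt points of Sesn2 lie within 1.88 to 2.00, and Card9-/- 3 (1.92) falls among them.

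Mtor encodes the kinase itself. The probe that stands for the gene was designed on an Ensembl transcript (ENSMUST00000123566; mm9 chromosome 4, 147829016 to 147829075, plus strand). Its levels were -0.82, -0.51, 0.51 and 0.04 in wt 1 to 4 and 0.33, -0.12, -0.24 and -0.67 in Card9-/- 1 to 4. High and low arrays occurred in both genotypes and the ranges overlapped almost fully, with a difference of 0.02 ± 0.41 (SE; limma, adjusted p = 0.997). A probe near the 3′ end of the curated mRNA (NM_020009; 147931250 to 147931309) read -1.03, -1.37, -2.11 and -0.996 in wt and -1.32, -0.54, -0.88 and -2.005 in Card9-/-. Array wt 3 was the highest of all on the transcript probe and the lowest on the mRNA probe, so the probes did not follow each other across arrays, although neither separated the genotypes (mRNA probe, 0.19 ± 0.44, limma adjusted p = 0.960).

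Rptor encodes raptor, the scaffold that brings substrates to mTORC1. On its curated mRNA probe (NM_028898; mm9 chromosome 11, 119760596 to 119760655, plus strand) levels were 0.76, 1.05, 1.65 and 0.85 in wt and 0.51, 1.44, 0.39 and 0.56 in Card9-/-. All Card9-/- arrays except Card9-/- 2 lay below the wt arrays. The difference of -0.35 ± 0.38 did not pass (limma adjusted p = 0.892; exact permutation p = 0.343, two-sided). A probe of a cDNA clone within the same locus (AK137878; 119693359 to 119693418) gave -0.37, -0.52, -2.66 and -3.09 in wt and -2.70, -0.57, -2.36 and -1.12 in Card9-/-. Arrays wt 1 and wt 2 were high and wt 3 and wt 4 low on it, an order that the curated probe did not show, and the SD over wt was 1.42 against 0.40 on the curated probe. Of the other Rptor probes, one on an Ensembl transcript was well above background on 2 wt and 3 Card9-/- arrays, with a difference of 1.06 between measured means that its dim arrays limit, and another on 0 arrays.

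Rheb is the GTPase that activates mTORC1. The sequences of its probes are shown because they differ in repeated content. In the lines that follow, capitals mark bases that lie in a run of 16 also found in the promoter window of at least 1 other gene, on either strand.
Rheb Ensembl transcript probe: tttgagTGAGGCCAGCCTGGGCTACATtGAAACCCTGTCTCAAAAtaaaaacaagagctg
Rheb curated mRNA probe: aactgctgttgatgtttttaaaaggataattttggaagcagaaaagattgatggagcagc
The first (ENSMUST00000154523; mm9 chromosome 5, 24316120 to 24316179, minus strand) has 38 such bases, found in the windows of 16 other genes, and its capitals resemble the B1 interspersed repeat of rodents. Of all 56605 probes, 1.11% have matches in as many genes or more. No other probe of the 10 genes has matches in more than 2. The second (NM_053075) has none and spans 3302 bases of the genome (24309516 to 24312817), so that it crosses an intron and reads spliced RNA.

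The transcript probe stood for Rheb under the rule of the highest mean. It read 6.32, 6.40, 5.07 and 5.18 in wt and 3.10, 5.10, 3.94 and 5.88 in Card9-/-. Arrays Card9-/- 1 and 3 lay below every wt array, Card9-/- 2 just above the lowest of them and Card9-/- 4 among them. Card9-/- 1 and 3 were the arrays of slide 2, which held no wt array. The difference of -1.23 ± 0.64, 0.425 of the wt level, did not pass (limma adjusted p = 0.743; exact permutation p = 0.143) and came to -0.77 without Card9-/- 1. On the spliced-mRNA probe the levels were -0.23, -0.11, 0.19 and 0.80 in wt and -2.29, 0.40, -1.15 and -0.83 in Card9-/-, and 3 of 4 Card9-/- arrays lay below all wt arrays. Its difference was of like size (-1.13 ± 0.56, limma adjusted p = 0.725). Within slide 1, where only Card9-/- 4 can be set against the wt arrays, the difference was 0.14 on the transcript probe and -0.99 on the spliced-mRNA probe. A fit with estimated array weights put Rheb past the threshold (-1.81, limma adjusted p = 0.0388), the only such case among 23 other settings and 10 genes. In that fit 1171 of 18605 genes passed, against 5 in the reported fit. The weighted fit gave wt 2 a weight of 10.1 and wt 3 one of 0.177 and did not converge.

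**Figure D2:**
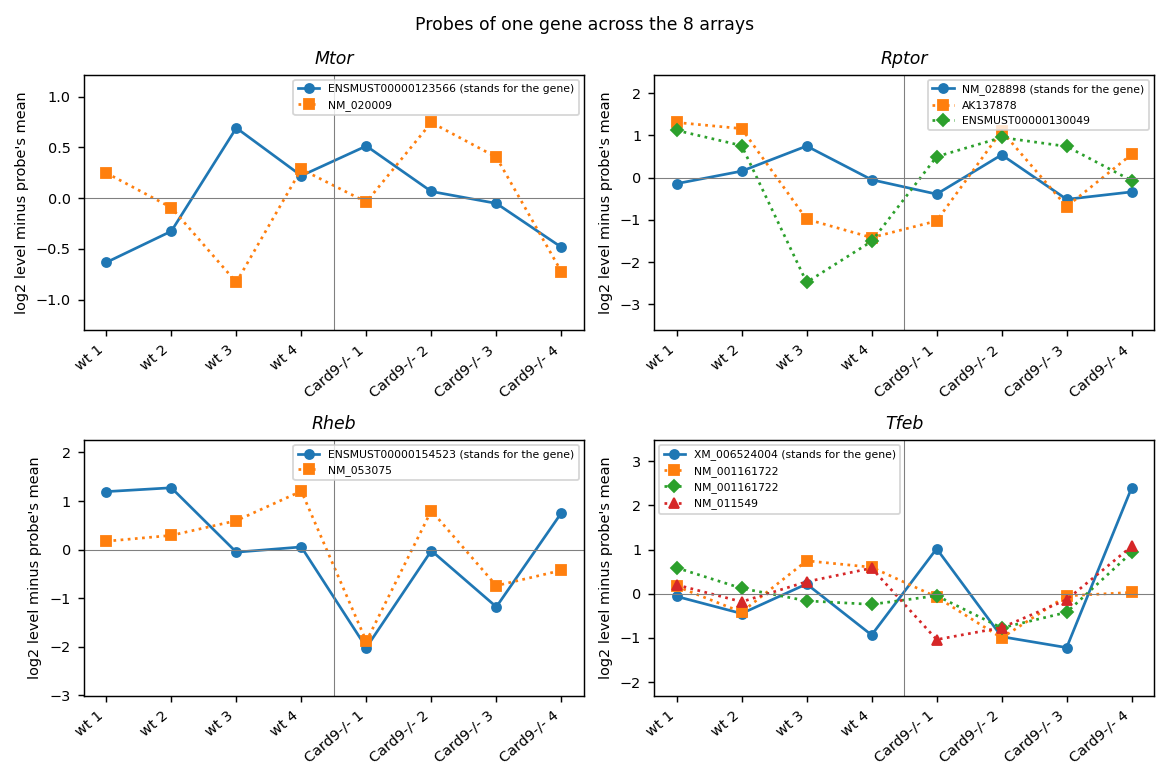
Levels of each probe of Mtor, Rptor, Rheb and Tfeb that passed the filter on the 8 arrays, as the log2 level minus the probe's own mean; solid lines are the probes that stand for the gene. The lines of Mtor and of Rptor part most at wt 3, while both Rheb probes are lowest at Card9-/- 1. The Tfeb probe that stands for the gene and both dim Tfeb probes are highest at Card9-/- 4, and the last curated mRNA probe is not.

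Tsc1 and Tsc2 encode hamartin and tuberin, the core of the complex that turns Rheb off. For Tsc1 (NM_001289575; mm9 chromosome 2, 28546610 to 28546669, plus strand) levels were 0.12, 0.29, 0.63 and 0.55 in wt and 1.04, 0.61, 0.03 and 0.05 in Card9-/-. The Card9-/- arrays held both the highest and the lowest values, with a difference of 0.03 ± 0.36 (limma adjusted p = 0.993). A probe of the same transcript further upstream was well above background on 2 wt and 1 Card9-/- arrays and was not tested.

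For Tsc2 (NM_011647; mm9 chromosome 17, 24732761 to 24732803, minus strand) levels were 1.83, 1.80, 3.50 and 2.06 in wt and 1.94, 2.08, 2.13 and 1.43 in Card9-/-. Array wt 3 stood above all others and the other 7 arrays lay within 1.43 to 2.13. The difference of -0.40 ± 0.45 (limma adjusted p = 0.892; exact permutation p = 0.543) came to -0.0019 without wt 3.

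TFEB and TFE3 are the members that switch on lysosome and autophagy genes. The probe standing for Tfeb was designed near the start of a predicted transcript (XM_006524004; mm9 chromosome 17, 47896359 to 47896418, plus strand). It read -0.77, -1.16, -0.49 and -1.65 in wt and 0.31, -1.68, -1.93 and 1.69 in Card9-/-. The Card9-/- arrays lay on both sides of all wt arrays, and the SD was 1.72 in Card9-/- against 0.50 in wt. The difference of 0.61 ± 0.77 did not pass (limma adjusted p = 0.905; exact permutation p = 0.571).

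A probe in the last part of the curated Tfeb mRNA (NM_001161722; 47929089 to 47929148) pointed the other way. Its levels were -1.36, -1.94, -0.78 and -0.92 in wt and -1.60, -2.52, -1.57 and -1.49 in Card9-/-, a difference of -0.55 ± 0.41 (limma adjusted p = 0.838). The groups overlapped through wt 2, and Card9-/- 4, the highest array on the first probe, was not set apart here. Both remaining Tfeb probes were well above background on all wt arrays but on only 2 and 1 of the Card9-/- arrays, so their differences bear on no direction. Card9-/- 4 was the highest array on both of them (-2.38 and -2.35), at low signals of 37.4 and 38.3. Between the 2 probes measured on all 8 arrays, the fitted differences had opposite signs and neither passed. The part of different transcripts in this was not tested.

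Tfe3 is X-linked. Its probe (NM_001271490; mm9 chromosome X, 7352259 to 7352318, plus strand) read 3.07, 3.08, 4.80 and 4.33 in wt and 3.54, 3.40, 3.44 and 3.01 in Card9-/-. Arrays wt 3 and wt 4 were the highest and the other 6 lay within 3.01 to 3.54. The difference was -0.47 ± 0.47 (limma adjusted p = 0.879; exact permutation p = 0.371). It was 0.27 without wt 3 and wt 4, and -1.22 without wt 1 and wt 2 (limma adjusted p = 0.187), so the direction rests on which pair of wt libraries is kept. The macrophage markers had mean levels of 6.69 and 5.52 in wt 3 and wt 4 and of 1.17 and 1.42 in wt 1 and wt 2; their part in the Tfe3 values was not tested. A second Tfe3 probe was well above background on 1 of 8 arrays.

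Ddit4, Sesn1 and Sesn2 carry stress signals to mTORC1. Ddit4 encodes REDD1, which acts through the TSC complex and is induced by hypoxia, glucocorticoids and ATF4. Its levels (NM_029083; mm9 chromosome 10, 59412486 to 59412545, minus strand) were 2.48, 2.49, 3.30 and 4.29 in wt and 3.83, 2.07, 3.37 and 2.56 in Card9-/-. The spread was alike in both genotypes, with SDs of 0.86 and 0.79, and the difference was -0.18 ± 0.55 (limma adjusted p = 0.971; exact permutation p = 0.8286).

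Sesn1 is a p53 target that inhibits mTORC1 under genotoxic stress. Its levels (NM_001013370; mm9 chromosome 10, 41628000 to 41628059, plus strand) were 2.75, 2.74, 1.77 and 2.31 in wt and 3.42, 3.18, 2.30 and 3.69 in Card9-/-. All Card9-/- arrays except Card9-/- 3 lay above every wt array. The difference of 0.76 ± 0.42 corresponds to 1.69 times the wt level and did not pass (limma adjusted p = 0.764; exact permutation p = 0.143). It kept its sign in all 23 other settings, from 0.27 to 1.29. Sesn1 has 1 probe, so settings of filter, probe choice and replicate block returned the same difference and could not change its sign.

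Sesn2, a sestrin that binds leucine and restrains the GATOR2 complex upstream of the Rags, is induced by ATF4. Its levels (NM_144907; mm9 chromosome 4, 132048858 to 132048917, minus strand) were 2.00, 1.88, 2.00 and 1.88 in wt and 0.71, 0.98, 1.92 and 1.38 in Card9-/-. The wt arrays lay close together, with an SD of 0.068 against 0.526 in Card9-/-, and all Card9-/- arrays except Card9-/- 3 lay below them. Macrophage markers spanned over 5 log2 units in the same wt arrays, from 1.17 to 6.69, so the closeness of the Sesn2 values was not shared by them. The difference of -0.69 ± 0.36, or 0.619 of the wt level, did not pass (limma adjusted p = 0.748; exact permutation p = 0.0857, where 0.0286 is the smallest p this design allows). It was negative in all 23 other settings, from -0.91 to -0.51. As for Sesn1, settings of filter, probe choice and replicate block could not change it.

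Across the 10 genes, 6 had a lower mean in Card9-/-, as had 56.3% of all genes; it was 8 under median scaling and 5 under quantile normalization. Their median difference was -0.27, against -0.09 over all genes tested. In 0 of the 10 were the groups free of overlap, against 5.22% of all genes. Levels of Tsc2, Rheb, Tfeb and Ddit4 ranged over more than 2 log2 units on the 8 arrays, as did 55.7% of all genes, and the median range was 1.86 against 2.17. Without wt 1, whose label the Card9 probe does not bear out, none of the 10 passed either; the differences were then -0.18 for Mtor and -0.06 for Tsc1 and had the same sign as before for the other 8.

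**Figure D3:**
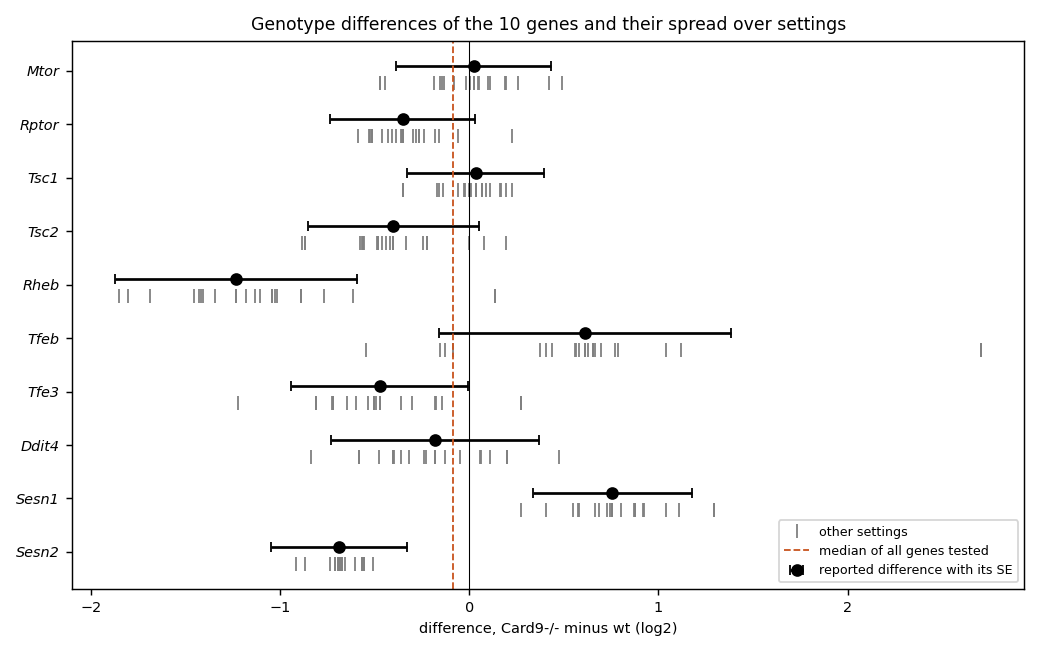
Difference between the genotypes (Card9-/- minus wt, log2) for each of the 10 genes; black points and bars are the reported difference and its SE (n = 4 per genotype), grey ticks the values under 23 other settings, and the dashed line the median of all genes tested (-0.09). Sesn1 and Sesn2 have all their ticks on 1 side of 0, while the ticks of the other 8 genes fall on both sides. Both sestrins have 1 probe each, so settings of filter and probe choice could not move them.

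Other genes of the pathway were read from the same fit: of 125 listed genes 118 were tested, and 0 passed the adjusted threshold. Before adjustment 6 were below 0.05, all with lower means in Card9-/- (4.59% of all genes were below it in that direction). The groups did not overlap for 6 of the 118 genes (Atg13, Asns, Uvrag, Sqstm1, Vps11 and Ywhae), a share near the 5.22% of all genes. Means were lower in 80 and higher in 38 (56.3% of all genes were lower), with a median difference of -0.22. This split rested on the scaling and on the libraries: 59 were lower and 59 higher under quantile normalization, 100 were lower under median scaling, 53 without wt 3 and wt 4, and 45 with array weights.

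Among substrates of mTORC1, 7 of 10 tested genes had lower means in Card9-/- (3 under quantile normalization). Atg13, the subunit of the ULK1 complex that mTORC1 holds in check, had levels of 2.81, 2.77, 3.50 and 3.14 in wt and 1.28, 2.37, 0.77 and 2.21 in Card9-/-. All wt arrays lay above all Card9-/- arrays, and the difference of -1.40 ± 0.44 did not pass (limma adjusted p = 0.552). Ulk1, the kinase that starts autophagy, differed by -0.61 ± 0.38 and Rps6kb2, an S6 kinase, by 0.69 ± 0.42, with overlap in both. Of 10 other mTOR complex subunits, 7 had lower means (8 under median scaling, 6 under quantile normalization and 4 with array weights). The values furthest from 0 by their test were those of Mapkap1, a subunit of the sister complex mTORC2 (0.97 ± 0.59), Prr5 (-0.48 ± 0.36) and the assembly factor Tti1 (-0.40 ± 0.32).

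Partners of Rheb and inputs to the TSC complex were read in the same way. Rhebl1, a Rheb relative, differed by 0.77 ± 0.45 and Tbc1d7, the third TSC subunit, by 0.0042 ± 0.36. Of 13 kinases and phosphatases upstream, 10 had lower means (11 under median scaling, 8 under quantile normalization and 6 with array weights). Among them were Akt1 (-0.67 ± 0.41) and Prkab2, a subunit of the energy sensor AMPK (-0.77 ± 0.51).

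In the amino acid branch, 10 of 12 Rag and Ragulator genes had lower means, with a median of -0.28. This list had 6 lower and 6 higher under quantile normalization, and 5 lower without wt 3 and wt 4, with a median of 0.44. Slc38a9, a lysosomal arginine sensor, differed by -1.41 ± 0.59 (limma adjusted p = 0.653), Rragc by -0.64 ± 0.40 and Lamtor5 by -0.63 ± 0.35. The Slc38a9 probe was designed on a cDNA clone, the only one of this list not on a curated mRNA. With curated mRNA probes put first, a setting chosen after seeing the data, 9 of 12 were lower, with a median of -0.22. The lower mean of Slc38a9 thus holds for the clone probe only. GATOR and sensor genes, the step on which SESN2 acts, had 5 lower and 8 higher means (9 lower under median scaling), with Wdr59, a GATOR2 subunit, at -1.06 ± 0.42 (limma adjusted p = 0.624), the arginine sensor homologue Castor2 at -0.53 ± 0.39 and Nprl2 of GATOR1 at 0.95 ± 0.75.

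Regulators shared by Ddit4 and the sestrins were read as well. In the ATF4 branch, 9 of 11 genes had lower means (5 of 11 under quantile normalization), with a median of -0.23. Asns, the asparagine synthetase that ATF4 induces, had levels of 0.74, 1.00, 1.81 and 2.61 in wt and 0.20, 0.56, -0.31 and -0.03 in Card9-/-. Every wt array lay above every Card9-/- array (-1.44 ± 0.47, limma adjusted p = 0.560). Atf5 differed by -1.002 ± 0.39 (limma adjusted p = 0.624) and Eif2ak3, the stress kinase PERK, by 0.45 ± 0.34. Among p53, hypoxia and glucocorticoid regulators 6 of 11 were lower (10 under median scaling and 3 under quantile normalization), led by the p53 target Cdkn1a (-1.09 ± 0.61), with Nr3c1, the glucocorticoid receptor, at -0.28 ± 0.33 and Mdm2 at -0.28 ± 0.40.

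**Figure D4:**
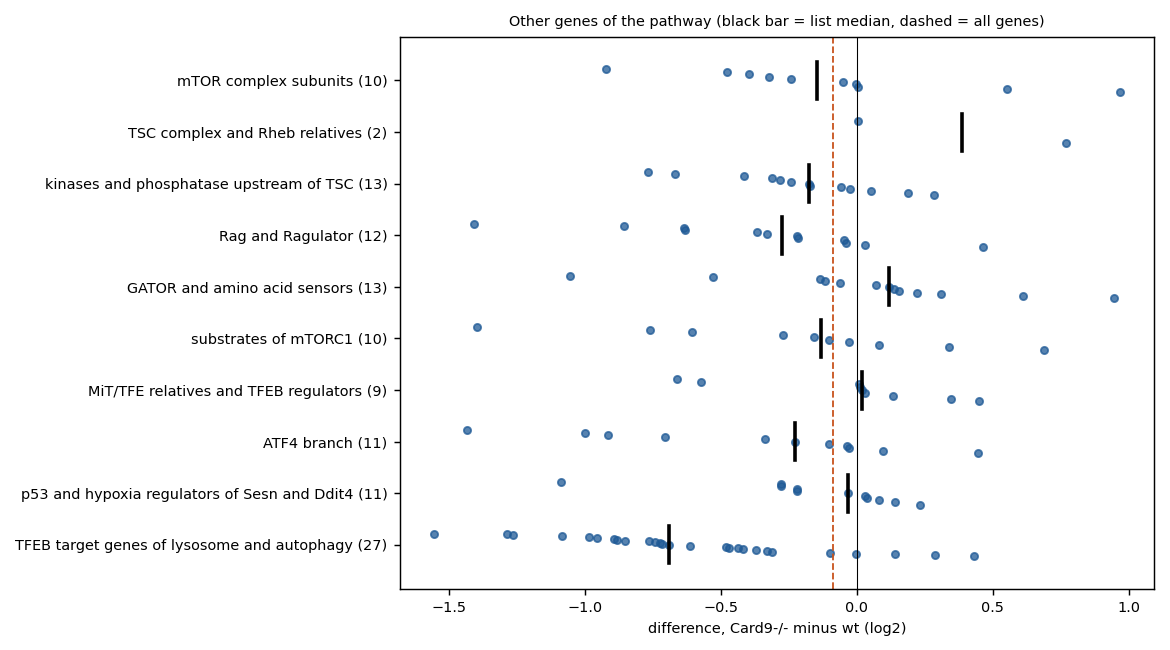
Difference between the genotypes (Card9-/- minus wt, log2) for 118 other genes of the pathway, 1 point per gene, by list with the number tested; black bars are list medians and the dashed line is the median of all genes tested (-0.09). The TFEB target list has its median furthest to the left (-0.69), and no gene passed the adjusted threshold.

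Of 27 tested lysosome and autophagy genes known as TFEB targets, 24 had lower means in Card9-/-, with a median of -0.69, and 0 passed the threshold. Uvrag, Sqstm1 and Vps11 were the 3 of 27 whose groups did not overlap, as 5.22% of all genes did not. Sqstm1, the cargo receptor p62, read 6.44, 6.26, 6.75 and 6.64 in wt and 5.83, 6.07, 5.87 and 5.57 in Card9-/- (-0.69 ± 0.31, limma adjusted p = 0.696). Uvrag, a part of the autophagic lipid kinase complex, differed by -0.88 ± 0.33 (limma adjusted p = 0.612) and the vesicle tethering gene Vps11 by -0.89 ± 0.41 (limma adjusted p = 0.696). The Vps11 probe was designed on a predicted transcript, the only one of this list not on a curated mRNA. With curated mRNA probes put first, 24 of 27 were still lower, with a median of -0.61. The size of the Vps11 difference thus depends on the probe.

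The list as a whole followed the wt libraries unequally. Its median level per array was 2.93, 2.92, 5.44 and 4.34 in wt and 3.12, 3.68, 3.79 and 2.98 in Card9-/-, so that wt 3 and wt 4 stood above and wt 1 and wt 2 below every Card9-/- array. Without wt 3 and wt 4, 9 of 27 were lower and the median was 0.28; without wt 1 and wt 2 it was -1.23. Under quantile normalization 19 of 27 were lower, with a median of -0.33. The macrophage markers and those of resident peritoneal macrophages (5 of 6 passed, Gata6 did not; means of -2.43, -1.78, 6.27 and 3.94 in wt and -0.45 to 0.72 in Card9-/-) were likewise highest in wt 3 and wt 4. Their part in the list's values was not tested.

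Mitf, the close relative of Tfeb and Tfe3, read -2.73, -2.08, 3.46 and 3.57 in wt and -0.28, 0.08, 0.45 and -0.68 in Card9-/-. Its wt values lay on both sides of all Card9-/- values, and its difference was -0.66 ± 1.41 (limma adjusted p = 0.955). It was singled out after its values were seen. Of the 9 relatives and regulators of TFEB tested, 7 had higher means, but 3 with normexp background correction and 2 under median scaling. Those with the smallest p were Ywhae, a 14-3-3 protein that binds phosphorylated TFEB (-0.57 ± 0.34), the calcineurin subunit Ppp3ca (0.45 ± 0.41) and the lysosomal calcium channel Mcoln1 (0.35 ± 0.52). The wt arrays of Ywhae lay within 5.37 to 5.64 and above all Card9-/- arrays.

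**Figure D5:**
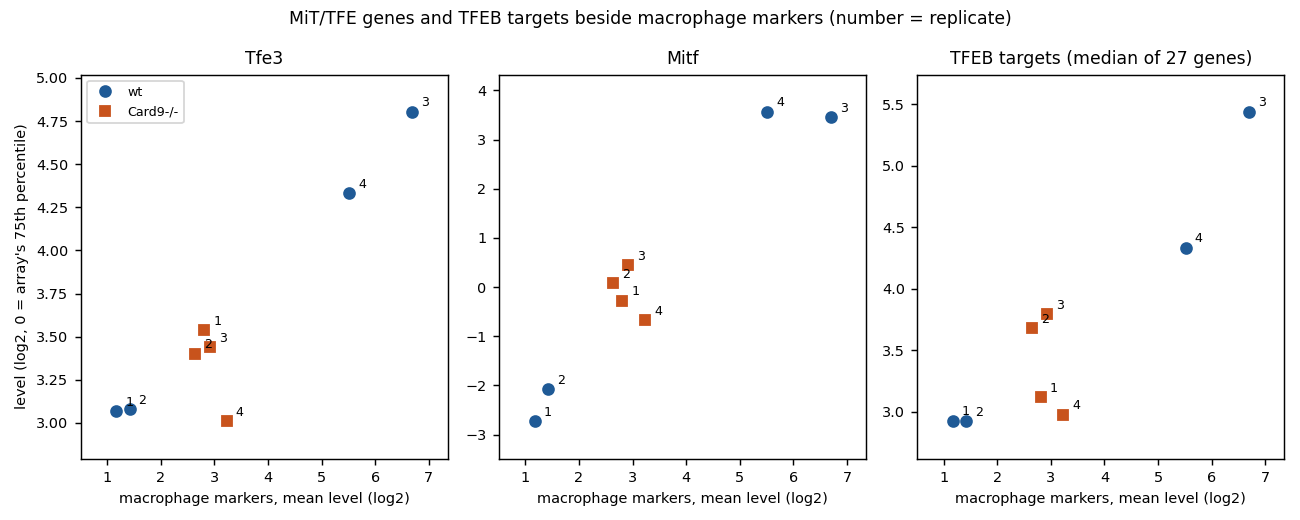
Levels of Tfe3 and Mitf and the median level of 27 TFEB targets (vertical axes, log2, 0 at the array's 75th percentile) against the mean level of 7 macrophage markers on the same array (horizontal axis, log2), numbered by replicate. In all 3 panels wt 3 and wt 4 lie at the upper right, wt 1 and wt 2 at the left, and the 4 Card9-/- arrays between them on the horizontal axis.

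TFEB and TFE3 bind DNA at sites with the letters CACGTG, which read the same on both strands. In RefSeq promoter windows (GRCm38.p6, 250 bases before to 50 after the start site) these letters occurred in 9 of 21 TFEB targets that had a window (42.9%) and in 5 of 12 Rag and Ragulator genes (41.7%), against 8.1% of 27025 genes. They also occurred in 3 of 10 genes of the p53 and hypoxia list (30.0%), which is no list of TFEB targets, in 1 gene each of the mTOR complex, TSC and TFEB regulator lists, and in 0 of the upstream kinases, GATOR genes, mTORC1 substrates and ATF4 branch; these shares were not tested. Among the 10 genes themselves only Rheb had them. The longer form GTCACGTGAC occurred in 0 genes of any list and in 0.37% of all genes. The stretches below show these letters, in capitals, in Rheb, in a pair of Rag and Ragulator genes, in a pair of lysosomal enzymes and in Mcoln1, all upstream of the start site.
Rheb (chr5:24842437-24842472, minus strand): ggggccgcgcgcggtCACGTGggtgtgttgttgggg
Lamtor1 (chr7:101905754-101905789, plus strand): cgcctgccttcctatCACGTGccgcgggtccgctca
Rragc (chr4:123917306-123917341, plus strand): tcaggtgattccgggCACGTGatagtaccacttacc
Ctsd (chr7:142387905-142387940, minus strand): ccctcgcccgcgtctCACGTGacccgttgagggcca
Naglu (chr11:101070006-101070041, plus strand): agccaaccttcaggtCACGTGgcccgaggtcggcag
Mcoln1 (chr8:3500433-3500468, plus strand): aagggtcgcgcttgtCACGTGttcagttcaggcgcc
The capitals start 96 bases before the start site in Rheb, 68 in Lamtor1, 112 in Rragc, 98 in Ctsd, 73 in Naglu and 71 in Mcoln1. Beside them, Lamtor1 differed by -0.22 ± 0.57, Ctsd by -1.27 ± 0.86 and Naglu by -0.96 ± 1.09, with overlap in each. The presence of these letters is a description of the window and shows no binding in these cells.

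For the 4 members with a range over 2 log2 units, the most similar profile among the 118 pathway genes was sought as the smallest root mean square difference of centred levels over the 8 arrays. The smallest of 118 values lies below their median in any case, so each pair only names the nearest profile. Tsc2 was most like Scpep1 (0.262, against a median of 0.644 over the 118), Ddit4 most like Mdm2 (0.414 against 0.877) and Tfeb most like Map1lc3b (0.614 against 1.44). The Tfeb profile is that of the predicted-transcript probe, and both genes were highest on Card9-/- 4 (1.69 and 7.07). The curated Tfeb mRNA probe read -1.49 there and was highest on wt 3 (-0.78). Rheb was most like Slc38a9 (0.299 against 1.29), which read 4.78, 5.22, 4.01 and 4.40 in wt and 2.15, 3.98, 2.23 and 4.40 in Card9-/-. In both genes, Card9-/- 1 and 3 lay below every wt array. These are the arrays of slide 2, which held no wt array, so slide and genotype cannot be told apart for them. The Slc38a9 probe, designed on a cDNA clone, also holds runs of 16 bases found in promoter windows of other genes, in 43 genes against 16 for the Rheb probe and 0 for the probes of Scpep1, Mdm2 and Map1lc3b. The part of shared repeat sequence in this likeness was not tested.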

How the data were processed

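Each deposited scanner file gives the intensity of every spot, background-corrected by Agilent Feature Extraction (10.7.1.1, per the file headers) and not scaled between arrays. In the series matrix the authors deposited log2 values per probe; 7075 of its 56745 rows carry the next probe's values, so only the other 49670 were used, as an alternative. Its replicate numbers match those of the scanner files in 2 of 8 columns, and numbers here are those of the scanner files. Levels are log2 of the processed signal minus the array's 75th percentile of non-control spots. Outlier spots were set to missing and repeated spots averaged. Probes well above background on 3 of 4 arrays of either group were kept (28169), and the one with the highest mean stood for each gene. Coordinates are mm9, from the files.

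The genotypes given in the labels were compared by limma (3.58.1; R 4.3.3) over all genes (two-sided, Benjamini-Hochberg), after the script was tested on simulated data. Beside it stand exact permutation tests over 70 assignments. The members and lists were chosen with earlier results of these data known. All members were named with their levels. Of each list, up to 3 genes with the smallest p were named, and, for members ranging over more than 2 log2 units, the pathway gene with the most similar profile. One gene that this rule names is not reported here. Alternatives varied background correction, scaling, filter, probe choice, slide, replicate block, array weights, source of values and the libraries kept.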

Additional observations from a re-analysis of the deposited data

Results flagged for a closer look

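In 36 groups of 4 arrays, formed by the 18 tested probes of the 10 genes in each genotype, the gap between an extreme array and the nearest other was set against the group's whole range; a ratio above Dixon's critical value for 4 samples was taken as standing apart, which chance gives in about 1 of 20 groups. For Rptor (curated mRNA probe), Card9-/- 2 was high at 1.44 against 0.56 in the nearest Card9-/- array, a ratio of 0.833. For Tsc2 (NM_011647), wt 3 was high at 3.50 against 2.06, a ratio of 0.849. For Tfeb (the last probe of the curated mRNA NM_001161722), Card9-/- 2 was low at -2.52 against -1.60, a ratio of 0.899.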

How the results depend on the processing

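Of 230 recomputed differences of the 10 genes, 35 had the other sign and 1 (Rheb, array weights) was past the threshold; the causes were not tested. Genes past the threshold, 5 as reported, came to 0 with slide as a block, 0 within slide 1, 3 with a replicate block, 1171 with array weights and 430 without wt 1 and wt 2. With array weights 1 of 10 members and 5 of 118 pathway genes passed (Gla, Slc38a9, Atf5, Prkab2 and Mapkap1), where 1171 of all 18605 genes did. Without wt 1 and wt 2 another 5 of 118 passed (Cebpb, Clcn7, Mitf, Trib3 and Fnip2), where 430 of all 18605 did. The replicate block changed no other call, and the numbers do not pair the arrays (correlations of deviations -0.13, 0.25, -0.12 and -0.28, and only replicate 2 was closest to its own number). Leaving out 1 array gave 5 to 6 genes past the threshold and 0 members or pathway genes. It moved Mtor from -0.18 to 0.26, Tsc1 from -0.17 to 0.17, Ddit4 from -0.47 to 0.20 and Tfeb from -0.085 to 1.12. Rheb ranged from -1.69 (without Card9-/- 4) to -0.77 (without Card9-/- 1), Rptor from -0.59 to -0.16, Tsc2 from -0.57 to -0.0019 and Tfe3 from -0.72 to -0.15. Median scaling moved the median of all genes to -0.26, with Mtor at -0.15 and Tsc1 at -0.14. Quantile normalization and the authors' values gave Ddit4 0.060 and 0.058. The mean of a gene's probes gave Rptor 0.22 and Tfeb -0.13, but it takes in probes that were dim on some arrays. For Rptor this was a probe well above background on 2 wt and 3 Card9-/- arrays. For Tfeb these were the probes well above background on 2 and 1 of the Card9-/- arrays. Neither mean therefore bears on a direction. The curated mRNA probe, chosen after seeing the data, gave Tfeb -0.55. With slide as a block, and equally within slide 1, Mtor was -0.47, Tsc1 -0.35, Rheb 0.14 and Tfeb 2.71; with slide as a random block Mtor was -0.019. Array weights gave Tsc2 0.19, Tfeb -0.16, Tfe3 0.27 and Ddit4 0.20. With wt 1 and wt 2 averaged, Mtor was -0.13 and Tsc1 -0.030. Without wt 3 and wt 4, Tsc2 was 0.079, Tfe3 0.27 and Ddit4 0.47. Without wt 1 and wt 2, a setting chosen after seeing the data, Mtor was -0.45 and Tsc1 -0.16. Sesn1 and Sesn2 kept their sign throughout, though settings of filter, probe choice and replicate block could not change it. The number of arrays limits the precision.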
